A study of Mus musculus with 3 samples.

Results

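The genes described here are 36 immediate early and dissociation genes, taken as a fixed list of symbols. All 36 were present in each of the 3 deposited expression tables, which share 15904 genes. They were followed through the authors' clusters and through hashed samples, the samples of a pool that each carried a barcoded antibody (a hashtag). The 2 brain genotypes, low and high RNA content per cell, and brain and blood cells of the same type were compared.

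Immediate early genes are switched on from a resting state by growth factors, calcium, stress or cytokines, without new protein synthesis. Many encode transcription factors (the FOS and JUN proteins of the AP-1 complex, EGR and KLF factors), and others encode brakes on the same signals, such as the phosphatase DUSP1, the RNA-decay factor ZFP36 and the NF-kB inhibitors NFKBIA and TNFAIP3. They are also known as genes that respond when tissue is dissociated into single cells, and microglia, the resident macrophages of the brain, are known to respond in this way.

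The study made 1 pool of 8 hashed samples from female C57Bl/6 mice aged 2 to 3 months. It held 4 samples of naive brain, 2 of CCR2+/- and 2 of CCR2-/- genotype, each 1 hemisphere of a perfused animal. CCR2 is the chemokine receptor that monocytes use to leave the marrow. It also held 4 blood samples, a naive Het, a naive Hom, a metastasis-bearing Het and a metastasis-bearing Hom. Which gene Het and Hom stand for is not stated in the labels, and the series lists Cx3cr1+/-, Cx3cr1-/-, CCR2+/- and CCR2-/- mice together. Metastasis-bearing mice were bled about 2 weeks after carotid injection of E0771 cells, a mouse breast cancer line. Brain was digested with enzymes and enriched on Percoll, and blood was drawn by cardiac puncture and freed of red cells by lysis. Tissue and preparation therefore cannot be told apart in any comparison of brain with blood. The labels do not say that the hashtags of a genotype were separate animals, so p-values measure only the spread between these samples.

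Of 16328 deposited cells, 11063 were used: 3350 from brain, 3694 from naive blood and 4019 from blood of metastasis-bearing mice. The others either had a barcode that stood in more than 1 table (2401 of 13757 barcodes) or took under 0.5 of their hashtag counts from their own table's hashtags. The median raw count of unique molecular identifiers (UMIs) per cell was 6189 to 7394 in the 4 brain samples and 3929 to 4709 in the 4 blood samples. The summed corrected counts came to 4420428 to 9267629 per hashed sample. A level below is the number of corrected counts of a gene per 10000 corrected counts of all genes in a hashed sample and cluster. These are counts of 3′ ends and were not divided by transcript length.

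Promoters of the genes were read to show the sequence elements that immediate early genes are known for. RefSeq promoters on GRCm38.p6, from 250 bases before to 50 bases after the gene's start, were found for 29 of the 36 genes, and not for Egr1, Egr3, Ier2, Nfkbiz, Myc, Cebpd and Skil. The upstream 250 bases of 4 of them are shown 5′ to 3′ on the gene's strand. Btg2 and Dusp1 are shown because they hold the full cyclic-AMP response element TGACGTCA, and Nfkbia and Fos because they hold the NF-kB motif. Capitals mark the match.
Btg2, chr1:134079156-134079405, minus strand: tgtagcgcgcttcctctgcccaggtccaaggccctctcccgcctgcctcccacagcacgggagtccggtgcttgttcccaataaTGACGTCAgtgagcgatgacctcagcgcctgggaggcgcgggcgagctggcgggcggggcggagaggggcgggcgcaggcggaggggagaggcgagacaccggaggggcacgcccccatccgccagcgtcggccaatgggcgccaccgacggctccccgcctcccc
Dusp1, chr17:26508473-26508722, minus strand: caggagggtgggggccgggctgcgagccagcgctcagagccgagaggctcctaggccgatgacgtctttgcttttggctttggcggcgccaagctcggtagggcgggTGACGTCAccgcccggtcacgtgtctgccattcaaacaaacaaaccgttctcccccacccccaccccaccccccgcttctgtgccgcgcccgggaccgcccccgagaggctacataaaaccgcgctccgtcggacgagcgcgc
Nfkbia, chr12:55492648-55492897, minus strand: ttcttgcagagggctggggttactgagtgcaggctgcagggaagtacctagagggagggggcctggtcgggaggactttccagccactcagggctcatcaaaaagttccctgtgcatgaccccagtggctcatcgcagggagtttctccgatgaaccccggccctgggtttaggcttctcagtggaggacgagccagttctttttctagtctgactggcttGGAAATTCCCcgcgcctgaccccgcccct
Fos, chr12:85473640-85473889, plus strand: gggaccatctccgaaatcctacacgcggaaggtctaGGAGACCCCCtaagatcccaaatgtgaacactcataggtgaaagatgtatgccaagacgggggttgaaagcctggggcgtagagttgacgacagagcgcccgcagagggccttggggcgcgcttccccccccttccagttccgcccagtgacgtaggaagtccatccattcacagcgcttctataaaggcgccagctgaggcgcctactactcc

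The TGACGTCA match began at -166 in Btg2 and at -143 in Dusp1, counted from the gene's start. The NF-kB match began at -29 in Nfkbia and at -214 in Fos, in both genes as a match on the reverse strand. Over the whole windows and both strands, TGACGTCA stood in 4 of the 29 promoters (Btg2, Ccnl1, Dusp1 and Maff), or 13.8%, and in 2.03% of 27025 mouse promoters of the same length. Its core TGACG, which lies inside it, stood in 16 of 29 (55.2%) and in 23.0% of all. The NF-kB motif stood in 7 of 29 (24.1%) and in 5.14% of all. The EGR site GCGGGGGCG stood in 6 of 29 (20.7%) and in 3.31% of all. The CArG box of serum response factor stood in 2 of 29 (6.9%) and in 1.81% of all. The AP-1 site TGAGTCA stood in 1 of 29, Tnfaip3 (3.45%), and in 5.95% of all. These are matches of letters in a window, described without a test. Elements outside the window, or in the genes without a promoter here, were not looked for.

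The genes were most abundant in the 2 largest brain clusters. Together they made 796 ± 35.2 per 10000 corrected counts (SD, n = 4 hashed samples) in brain cluster 1, or 7.96% of them. Cluster 1 (1232 cells, median 10044 UMIs) carried all 10 microglia markers, among them P2ry12 and Tmem119, and is called microglia-like. Brain cluster 0 (1236 cells, median 1563 UMIs) held 856 ± 57.1 per 10000. Its cells held between 4929 and 5251 corrected counts on average, more than their raw UMIs. Levels in cluster 0 therefore rest in part on counts that the correction added. Of 10 microglia markers, 2 were raised in cluster 0, meaning at least 2-fold over the mean of the other brain clusters, cluster 1 included. The markers summed to 53.3 in cluster 0, to 219 in cluster 1 and to at most 29.8 in the other brain clusters. The genes that led cluster 0 were Tmx4, Jmjd1c, Tanc2 and Adap2 together with 2 of the genes described here, Skil and Ccnl1. Cluster 0 is left unnamed, and levels there are not independent of how the cells were clustered.

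Brain cluster 3 (191 cells), with border macrophage, dendritic and monocyte markers, held 392 ± 61.3. Brain cluster 4 (248 cells), with T and NK cell markers and haemoglobin RNA, held 195 ± 32.2. Brain cluster 6 (301 cells), endothelial-like with fibroblast markers, held 190 ± 14.6. In naive blood, neutrophil-like cells held 236 and 252 in the 2 samples, monocyte-like cells 73.6 and 58.6, B cell-like cells 61.7 and 62.8, and T cell-like cells with NK markers 39.9 and 38.7. Platelet-like cells held 90.5 and 87.6, and a low-RNA cluster of naive blood with haemoglobin genes held 158 and 128. Blood of metastasis-bearing mice had the same order of neutrophils (250 in both samples) over low-RNA cells (122 and 102), with monocytes (61.7 and 55.6) and B cells (58.4 and 67.2) overlapping, and T cells (33.3 and 39.4) below them. NK cells there held 54.4 and 42.3.

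**Figure D1:**
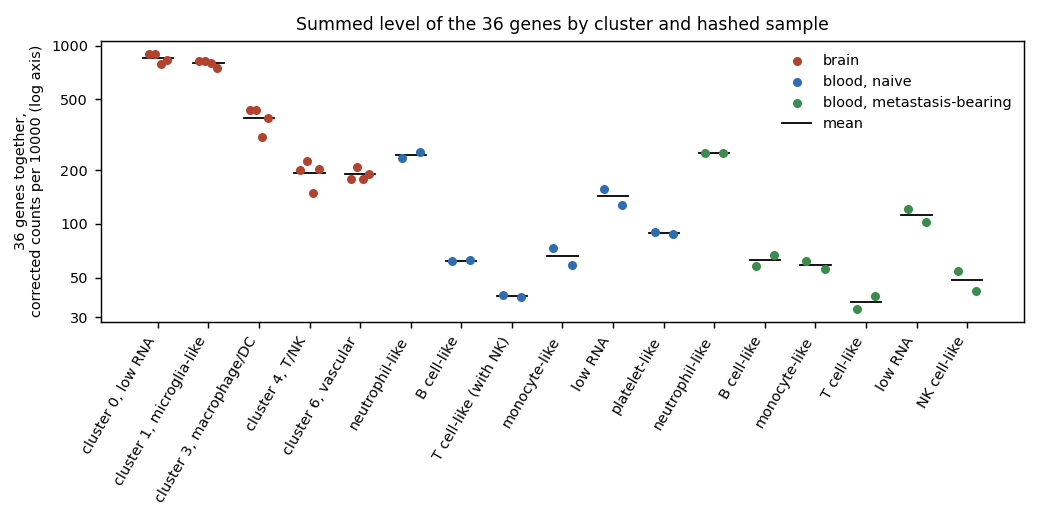
Summed level of the 36 genes (corrected counts per 10000, log axis) in clusters of brain, naive blood and blood of metastasis-bearing mice. Clusters shown had at least 20 cells in each hashed sample, with 1 point per hashed sample and a line at the mean. Brain clusters 0 and 1 sit between 746 and 905, and the neutrophil-like clusters of blood between 236 and 252.

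In cluster 1, 6 genes (Jun, Fos, Junb, Jund, Zfp36 and Rhob) made 52.1% of the sum. The values below follow the order CCR2+/- 1, CCR2+/- 2, CCR2-/- 1, CCR2-/- 2. Jun, the central AP-1 subunit, stood at 114, 113, 107 and 95.8. Fos, its partner, stood at 87.5, 75.4, 77.1 and 71.2. Both were within a narrow range across the 4 samples. Egr1, a zinc-finger factor, stood at 45.8, 43.0, 41.0 and 36.5, and Dusp1 at 39.3, 30.0, 31.3 and 27.3. Atf3, a stress-induced repressor of the ATF family, stood at 39.8, 35.4, 42.7 and 34.0. Ier2, a nuclear early-response protein, stood at 22.5, 24.9, 25.2 and 23.4, and Nfkbia at 28.1, 30.5, 29.0 and 36.9. At the other end, Myc, Fosl2, Jdp2, Egr3, Maff, Dusp2 and Tnfaip2 stayed at or below 1 in each sample of cluster 1.

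Against cluster 1, cluster 0 had 10 genes at a higher level with no overlap of the 4 samples, 12 at a lower level and 14 that overlapped, described without a test. The same was not counted over all genes, so whether these counts are particular to the genes described here is not known. The higher ones were led by Ccnl1, a cyclin of RNA processing (26.7, 26.8, 26.7 and 27.3 in cluster 0 and 7.54, 7.65, 7.40 and 6.65 in cluster 1), at 3.68 times. Skil, a repressor of SMAD signalling, followed at 2.78 times. Both are among the genes that led cluster 0. Egr3 (2.34 times), Fosb (2.33 times), Egr1 (1.93 times) and Btg2, an antiproliferative early gene (1.70 times), were also higher. Fos was lower, at 38.6, 35.5, 30.7 and 31.7, which is 0.439 of its level in cluster 1. Nfkbia (0.455), Tnf (0.466), Socs3, the cytokine-signalling inhibitor (0.482), the phosphatase gene Dusp2 (0.426) and Myc (0.26) were lower too. The AP-1 genes differed among themselves: Fosb was higher, Fos and Junb (0.901) lower, and Jun and Jund overlapped.

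**Figure D2:**
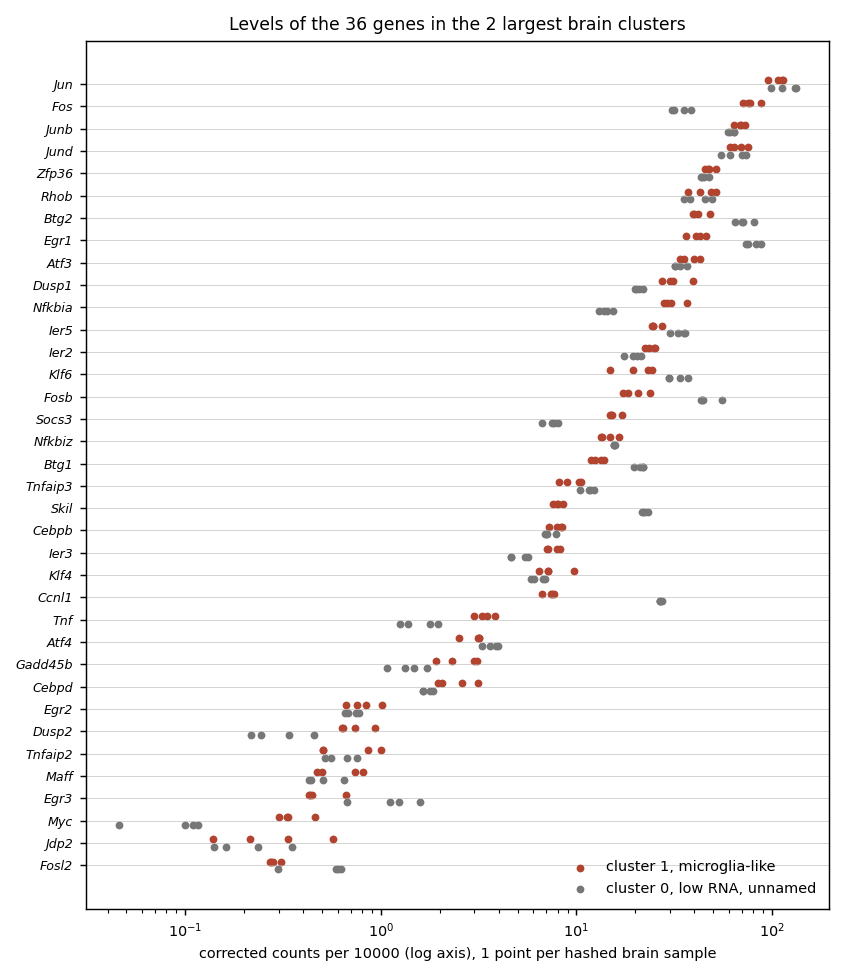
Level of each of the 36 genes in brain cluster 1 (microglia-like) and brain cluster 0 (low RNA, unnamed), with 1 point per hashed brain sample on a log axis of corrected counts per 10000. Ccnl1 and Skil stand to the right in cluster 0 (3.68 and 2.78 times) and Fos to the left (0.439 times).

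The leading genes of the list differed between clusters. Only the 5 brain clusters with at least 20 cells in each hashed sample were ranked. Among these 5, 15 genes had their highest mean level in cluster 1 and 13 in cluster 0. How all genes were divided among the 5 was not counted. Cebpb, a factor of myeloid cells, was highest in cluster 3 (14.1). Fosl2 (3.07), Dusp2 (6.31), Myc (0.609) and Gadd45b, a stress-response protein (2.65), were highest in cluster 4, and Klf4 (7.67), the AP-1 repressor gene Jdp2 (0.538) and Tnfaip2 (0.873) in cluster 6. Klf4 is a known factor of endothelium. Fosl2 was at 2.75, 4.61, 2.46 and 2.45 in cluster 4 and between 0.271 and 0.309 in cluster 1, so these groups did not overlap. Klf4 in cluster 6 and in cluster 1 (9.67, 7.14, 7.14 and 6.46) did overlap. Jdp2 and Tnfaip2 in cluster 6 and Gadd45b in cluster 4 overlapped cluster 1 as well. The brain neutrophil-like cells (36 cells, summed over samples) were too few to be ranked. They stood higher than the clusters named here for Cebpb (28.1), Tnfaip2 (5.68), Jdp2 (0.854) and Gadd45b (3.64), and lower for Fosl2, Dusp2, Myc and Klf4.

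In blood too, only clusters with at least 20 cells in each hashed sample were ranked. This left out, among others, a microglia-like cluster of 14 cells in naive and another of 14 in metastasis-bearing mice. How all genes were divided among the clusters was not counted. Neutrophil-like cells had the highest mean level of 20 genes in naive mice and of 24 in metastasis-bearing mice. Junb stood at 31.3 and 32.7 there (means of the naive and the metastasis-bearing pair), Btg1, an antiproliferative relative of Btg2, at 28.1 and 30.5, and Dusp1 at 15.4 and 19.3. Cebpd stood at 10.6 and 10.8, against 1.75 and 2.26 in monocyte-like cells. Jun stood at only 5.21 and 4.33, against 108 in brain cluster 1. Tnfaip2 was at 8.59 and 7.46 in neutrophils with means at or below 1.63 in the other ranked clusters of blood. Klf4 and Cebpb were led by monocyte-like cells in naive blood, at 3.48 and 15.4. Myc was led by T cell-like cells, at 0.327 and 0.558.

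The next question was whether brain and blood cells of the same type carried these genes at the same level. In brain cluster 4, compared with the T and NK cell cluster of naive blood, 30 of the 35 genes that passed the filter on low values were at least 2-fold higher with no overlap of hashed samples, and 0 were lower. Over all 9392 genes, 6.30% were higher and 8.82% lower by the same criterion. The median log2 difference was 2.17 for the 35 genes and -0.22 for all genes. The tables were normalised separately, so no test was made. The summed level was 149 to 226 in the 4 brain samples and 38.7 and 39.9 in blood.

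Among AP-1 genes, Fosl2 stood at 2.75, 4.61, 2.46 and 2.45 in brain and at 0.0956 (Het) and 0.104 (Hom) in blood, a log2 difference of 4.70. Junb stood at 38.2, 39.3, 29.6 and 32.5 against 2.23 and 2.29, which is 15.3-fold. Fos stood at 8.29, 6.77, 7.45 and 11.5 against 0.587 and 0.707, which is 12.7-fold. Every brain sample lay far above both blood samples for these genes. Fosb stood at 6.19, 7.56, 5.59 and 8.50 against 0.574 and 0.481, also 12.7-fold. Jun (6.54-fold) and Jund (3.62-fold) were higher by less.

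Among the brakes, Tnfaip3, the ubiquitin-editing inhibitor of NF-kB, stood at 6.54, 8.59, 4.88 and 7.83 against 0.341 and 0.330, which is 19.5-fold. Dusp1 stood at 6.58, 5.15, 3.98 and 6.25 against 0.437 and 0.417, which is 12.2-fold. Nfkbia spread widely over the brain samples, at 8.22, 19.1, 3.36 and 7.74 against 1.54 and 1.82. The sample with the highest Nfkbia, CCR2+/- 2, had only 31 cells. Cebpb stood at 5.09, 5.10, 3.42 and 2.96 against 0.328 and 0.342, which is 11.6-fold. Gadd45b stood at 1.98, 5.35, 1.68 and 1.60 against 0.355 and 0.209, which is 8.09-fold, again highest in CCR2+/- 2. The genes that did not meet the criterion were Egr3, Btg1, Socs3, Myc and Tnfaip2, and Egr2 did not pass the filter. Btg1, which is abundant in resting lymphocytes, stood at 22.4, 21.3, 16.3 and 22.2 against 11.4 and 9.69, no overlap but 1.94-fold. Tnfaip2 (0.0350, 0.0491, 0.0895 and 0 against 0.0956 and 0.0348) overlapped.

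**Figure D3:**
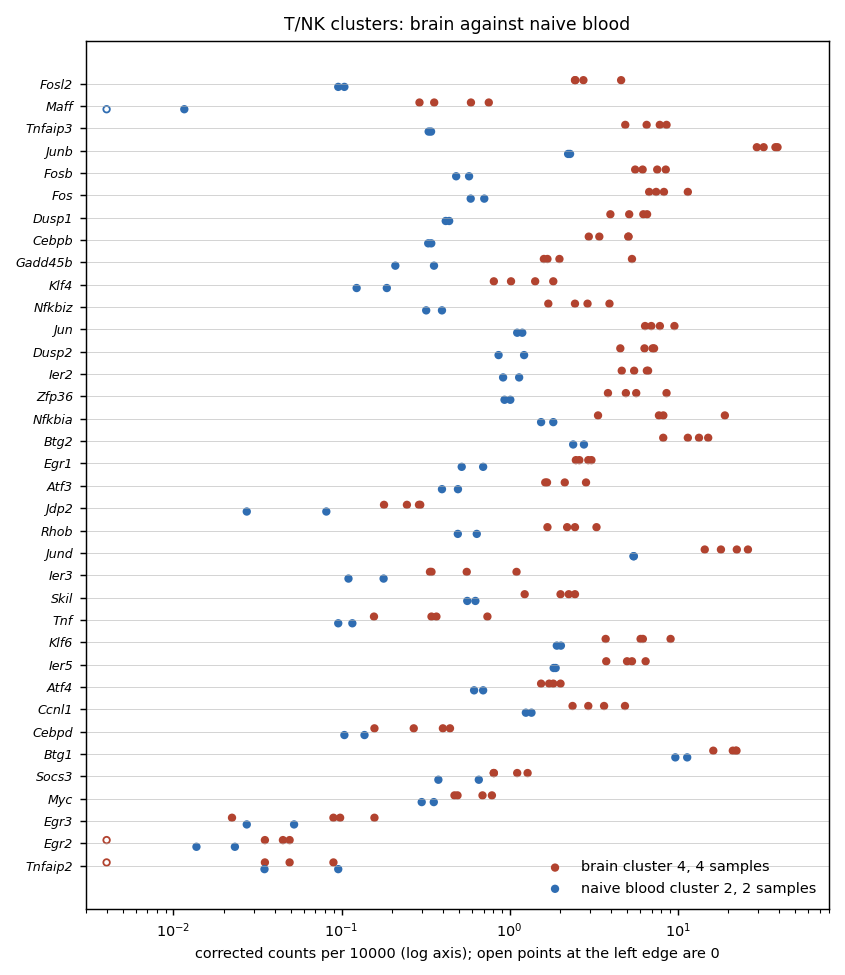
Level of the 36 genes in brain cluster 4 (4 hashed samples) and in the T and NK cell cluster of naive blood (2 hashed samples), on a log axis of corrected counts per 10000, with values of 0 drawn as open points at the left edge. For Fosl2, Tnfaip3 and Junb the 2 tissues stand 26.0, 19.5 and 15.3-fold apart, and for Tnfaip2 they overlap.

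The comparison with blood of metastasis-bearing mice gave 30 of 34 genes (5.95% of all genes), with the same brain samples on the other side. The make-up of the cells differed between tissues. T cell markers summed to 23.6 to 40.1 in brain and to 61.4 and 65.2 in naive blood, NK markers to 24.5 to 72.3 and to 20.2 and 45.5, and gamma delta T cell markers to 1.62 to 6.38 and to 0.464 and 1.14. Median UMIs were 6130 to 7389 in brain and 7760 and 7765 in blood. Among T cells chosen by the authors' antibody gates, in the 3 brain samples with at least 20 such cells, 27 of 32 genes were higher against naive blood (8.14% of all genes) and 28 of 32 against blood of metastasis-bearing mice (8.16%). Without the 15 of 248 brain cells that held more than 20 haemoglobin counts, 31 of 34 were higher. The median log2 difference was then 2.17 for the genes and -0.15 for all genes. The share of all genes past the criterion was not counted for these cells.

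Microglia markers were low but not absent in brain cluster 4. They summed to 4.48 to 11.6 there, to 1.76 and 2.02 in naive blood and to 219 in cluster 1. Each of the 10 markers stood at 2.93% to 4.57% of its level in cluster 1. Of the 36 genes, 35 stood above 4.57% of theirs, all except Egr2. The median gene stood at 24.0%. Among gated T cells the markers reached at most 3.55% and all 36 genes stood above that. The markers were chosen for microglia, and the share of all genes that stood above them was not counted. These counts therefore do not set the 36 genes apart from other genes. In brain cluster 0 the median marker stood at 23.6% and the median gene at 90.1% of cluster 1, so the ratio of genes to markers was not the same in both clusters. The part of RNA from microglia or from cluster 0 in the difference between brain and blood was not tested.

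The difference was not the same in every cell type. B cell-like cells of brain (30 cells, summed over samples, so without a spread) had 24 of 33 genes at least 2-fold higher than naive blood (4.64% of all genes) and 1, Gadd45b, lower (18.9% of all genes). Junb stood at 26.7 against 4.03, Rhob, a small GTPase gene, at 4.82 against 0.636, and Jun at 10.3 against 1.71. In neutrophil-like cells (36 in brain, 1172 in naive blood), 8 of 35 genes were at least 2-fold higher (10.7% of all genes) and 7 lower (21.4%), with a median log2 difference of 0.02. There Fos stood at 16.5 in brain and 16.3 in blood, Egr1 at 4.31 and 4.29, and Btg2 at 15.7 and 15.8. The inhibitor genes varied: Tnfaip3 stood at 3.97 against 0.355 and Nfkbia at 19.6 against 2.64, Dusp1 at 13.4 against 14.7, Zfp36 at 15.4 against 13.9, and Socs3 at 1.37 against 5.67. The 2 neutrophil groups were unlike in other genes. Camp, a granule gene of immature neutrophils, stood at 301 in brain and 0.1 in blood, Cxcr2, a receptor of mature neutrophils, at 4.75 and 20.9, and median UMIs were 11872 and 2964. Microglia markers summed to 20 in the brain neutrophils and to 9.69 in the brain B cells. In the brain neutrophils 26 of the 36 genes stood above the highest marker's 15.3% of its level in cluster 1. The share of all genes above that marker was not counted. The part of these differences in the result was not tested.

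Levels across tables rest on 2 separate normalisations. For 926 barcodes that stood in both the brain and the naive blood table, with the same raw UMI total in each, the 36 genes differed between the tables by a log2 of -0.21 (Tnf) to 0.06 (Jund). None of the 36 differed by more than 1.5-fold.

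Within the brain, few of these genes passed the threshold between the CCR2 genotypes. In microglia-like cluster 1, 3 of the 36 rose in CCR2-/- (0.271% of all 10713 genes tested) and 1 fell (0.215%), by limma with Benjamini-Hochberg adjustment over all genes. Tnfaip2, a gene induced by TNF, stood at 0.503 and 0.506 in CCR2+/- and at 1.00 and 0.855 in CCR2-/-. Maff, a small MAF factor, stood at 0.498 and 0.472 against 0.811 and 0.733. Its rise was 0.66 on the log2 scale, with a standard error of 0.13 and a limma adjusted p of 0.0149. Gadd45b stood at 1.92 and 2.30 against 2.99 and 3.11, and rose by 0.54 ± 0.10 (limma adjusted p = 0.0115). Jdp2 stood at 0.567 and 0.334 against 0.214 and 0.139, and the 2 CCR2+/- samples differed widely. The genotypes did not overlap for these 4 genes, and the 3 scarcest of them lay near or below 1 count per 10000.

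The abundant genes of cluster 1 did not pass the threshold. Fos differed by -0.13 (95% interval -0.43 to 0.16), Jun by -0.16 (-0.48 to 0.15) and Egr1 by -0.20 (-0.45 to 0.05). The median over the 36 genes was -0.02, and -0.04 over all genes. Median UMIs of cluster 1 also moved with genotype, at 9267 and 9673 in CCR2+/- and 9874 and 10995 in CCR2-/-. Their part in the result was not tested. Without the mean-variance trend limma called 0 of the 36 genes, and without CCR2+/- 1 Jdp2 (adjusted p = 0.113) and Gadd45b (0.314) were not called. Without CCR2-/- 1, Maff was not called (adjusted p = 0.0876) and 3 genes fell in place of 1.

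In cluster 0, 0 genes rose and 2 fell in CCR2-/- (0.101% of 9889 genes changed in either direction). Both lie at a level of 20 or more. There 2 of 16 genes of the list fell beside 11.6% of all 43 genes, the 16 included, so the count is near its background at that level. Jun stood at 131 and 132 in CCR2+/- and at 98.9 and 113 in CCR2-/-, a fall of 0.32 ± 0.06 on the log2 scale (limma adjusted p = 0.0493). Rhob stood at 45.5 and 49.1 against 35.5 and 38.2, and fell by 0.36 ± 0.07 (limma adjusted p = 0.0453). Both calls were lost with all deposited cells (adjusted p = 0.167 for each), with no filter on low genes, and without CCR2-/- 1 or CCR2-/- 2. Without CCR2+/- 2, Rhob was not called (adjusted p = 0.0891). In clusters 3, 4 and 6 limma called 0 of the genes (0.106% of 23574 tests over all genes), with 10 of 36, 6 of 33 and 3 of 33 at an unadjusted p under 0.05, beside 8.27%, 3.70% and 7.75% of all genes. Their medians were -0.21, -0.21 and -0.03, and those of all genes 0.08, 0.05 and -0.11. Without CCR2-/- 2 it made 6 calls there, and without CCR2+/- 1 it made 2, each of a gene lower in CCR2-/-. Whether the genotype difference itself differed between cluster 1 and cluster 0, 3, 4 or 6 was tested for each of the 36 genes, and limma called 0 of them (0% of all tests), with 0, 4, 4 and 6 of 36 at an unadjusted p under 0.05, beside 4.35%, 6.27%, 3.85% and 6.06% of all genes.

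**Figure D4:**
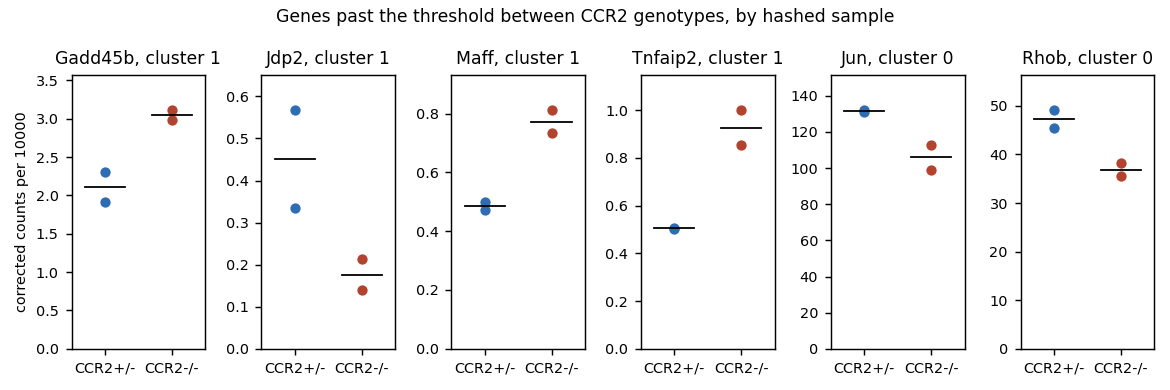
Level (corrected counts per 10000) by hashed sample of the 6 genes past the threshold between CCR2+/- and CCR2-/- brain, 4 in cluster 1 and 2 in cluster 0, with a line at each mean and axes from 0. Gadd45b, Maff and Tnfaip2 are higher in both CCR2-/- samples, and Jdp2, Jun and Rhob lower.

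The last comparison set cells of low against cells of high raw UMI total, split at the median of each hashed sample and cluster. The deposited values had already been corrected for that total, so the difference is what remained after the correction. Cells below the median are called low-depth and those above it high-depth. In microglia-like cluster 1 the low-depth cells had median totals of 7836 to 9136 UMIs and the high-depth cells 11045 to 12825. The 36 genes summed to 812 to 884 in the low-depth cells and to 683 to 777 in the high-depth cells, with no overlap. Of the 36 genes, 14 were higher in the low-depth cells (1.78% of 10713 genes) and 8 lower (1.05%), by limma with the sample as a block. Abundant genes made up most of the first group: 12 of the 14 genes at a level of 20 or more were higher, where 39.2% of all 51 genes at that level were. These 51 include the 14.

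Btg2 stood at 45.1, 55.5, 48.2 and 47.8 in the low-depth cells and at 34.7, 41.4, 35.6 and 31.5 in the high-depth cells. The difference was 0.46 ± 0.04 (limma adjusted p = 1.11e-08). Rhob stood at 54.9, 58.3, 51.1 and 43.4 against 42.8, 45.3, 35.0 and 31.1, a difference of 0.44. In each of the 4 samples both genes were higher in the low-depth cells. Atf4, the factor of the integrated stress response, stood at 3.60, 3.42, 3.96 and 3.00 against 2.70, 2.95, 2.44 and 2.06, a difference of 0.47. Jun stood at 126, 126, 117 and 107 against 104, 100, 97.8 and 85.4 (0.30), and Fos at 91.2, 81.1, 79.3 and 78.2 against 84.1, 70.1, 74.9 and 64.6 (0.17). Egr1 (0.20), Ier2 (0.26), Junb (0.16), Dusp1 (0.32) and Zfp36 (0.21) were also higher in the low-depth cells of all 4 samples. Atf3 was not called, at 0.08 (95% interval -0.01 to 0.17), and was higher in 3 of 4.

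Of the 8 genes that were lower in the low-depth cells of cluster 1, Tnf, a cytokine gene, differed most. It stood at 2.25, 1.60, 2.23 and 2.97 in the low-depth cells and at 3.72, 5.24, 5.36 and 3.59 in the high-depth cells, a difference of -0.99 ± 0.12 (limma adjusted p = 2.78e-06). Gadd45b stood at 1.44, 1.56, 1.88 and 2.47 against 2.37, 2.98, 4.02 and 3.72 (-0.83). Tnfaip2 stood at 0.307, 0.331, 0.547 and 0.781 against 0.685, 0.666, 1.43 and 0.924 (-0.93). All 3 were lower in the low-depth cells of all 4 samples. Maff (-0.81), Nfkbia (-0.20), Tnfaip3 (-0.26) and Socs3 (-0.21) were lower in each sample too, and Dusp2 (-0.72) in 3 of 4. Gadd45b, Maff and Tnfaip2 also rose between genotypes in cluster 1, a comparison of the same 4 samples, in which the CCR2-/- cells had the higher totals.

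The split between higher and lower depends on the scale. The correction left fewer corrected counts per cell in the low-depth cells of cluster 1, 7167 to 7414 against 7842 to 7926. On the mean corrected count per cell, 8 genes were higher and 13 lower, and the median of all genes moved from -0.04 to -0.14. Without CCR2+/- 2 the counts were 9 and 4, and without the mean-variance trend 0 and 0. Microglia markers summed to 212 to 225 in the low-depth cells and 204 to 228 in the high-depth cells.

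In cluster 0 the pattern ran the other way. Its low-depth cells had median totals of 761 to 1027 UMIs and its high-depth cells 1995 to 2102. After the correction they held 4929 to 4967 and 5186 to 5251 corrected counts per cell. The calls in cluster 0 thus rest in part on counts that the correction added. Here 3 genes were higher in the low-depth cells (7.63% of 9889 genes) and 21 lower (11.3%). The median was -0.35 over the 36 genes and -0.39 over all genes. At a level of 20 or more, 13 of 16 genes were lower, where 48.8% of all 43 genes were. These 43 include the 16.

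Btg2 stood at 53.5, 55.3, 42.6 and 47.6 in the low-depth cells and at 86.9, 105, 85.0 and 92.4 in the high-depth cells, a difference of -0.90 ± 0.05 (limma adjusted p = 3.27e-12). Jund stood at 55.3, 60.2, 39.7 and 43.4 against 84.4, 85.9, 68.8 and 78.7 (-0.69). Jun stood at 111, 108, 79.5 and 84.1 against 150, 155, 117 and 141 (-0.57). The low and high values of these 3 genes did not overlap. Egr3 (-1.20), Maff (-1.08), Egr2 (-0.95) and Tnf (-0.91), all scarce, were lower in each sample. Zfp36 (-0.51), Atf3 (-0.34) and Junb (-0.28) were lower as well. The differences of Fos (-0.11), Egr1 (0.03), Ier2 (-0.08) and Dusp1 (-0.04) did not pass the threshold.

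The 3 genes Cebpd, Gadd45b and Nfkbia were higher in the low-depth cells of cluster 0. Cebpd, a C/EBP factor, stood at 2.49, 2.45, 2.43 and 2.46 against 0.833, 1.25, 1.18 and 0.851, a difference of 1.27 ± 0.15 (limma adjusted p = 1.56e-07). Gadd45b stood at 1.59, 1.79, 1.79 and 2.22 against 0.570, 0.889, 1.16 and 1.26 (0.97). Both were higher in every sample, with no overlap. Nfkbia differed by 0.24. Neutrophil markers summed to 33.9 to 40.2 per sample in cluster 0 and to 6.17 to 7.18 in cluster 1. Cebpd and Gadd45b, but not Nfkbia, had their highest mean level among the ranked blood clusters in neutrophil-like cells. So did genes that were lower in the low-depth cells of cluster 0, such as Junb (-0.28) and Btg1 (-0.26). The part of neutrophil RNA in these differences was not tested. Without the mean-variance trend limma called 0 genes in cluster 0.

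The difference between the clusters was tested in 1 fit. Of the 36 genes, 21 had a depth difference in cluster 0 that differed from that in cluster 1: 18 were lower (5.21% of 11712 genes) and 3 higher (5.06%). Btg2 differed most among the abundant genes, with -0.90 in cluster 0 and 0.46 in cluster 1, a gap of -1.36 ± 0.07 (limma adjusted p = 2.49e-07). Jun had a gap of -0.86, Jund of -1.08 and Rhob of -0.83. The opposite gaps were those of Gadd45b (1.81), Cebpd (1.38) and Nfkbia (0.45). The median UMI totals of the 2 clusters did not overlap in any sample. For a difference in the depth effect between CCR2 genotypes, limma called 0 of the genes in clusters 0, 1 and 6 (0.0432% over all genes), with 3 of 36, 8 of 36 and 3 of 33 at an unadjusted p under 0.05, beside 4.72%, 4.94% and 4.12% of all genes.

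In endothelial-like cluster 6, 14 of 33 genes tested were higher in the low-depth cells (2.99% of 9485 genes) and 0 were lower (2.78%), by limma. The median was 0.60 over the 33 genes and -0.27 over all genes. The low-depth cells had 4046 to 6308 UMIs and the high-depth cells 13477 to 17875. Tnfaip3 stood at 0.977, 1.05, 1.52 and 0.919 against 0.110, 0.0378, 0.0821 and 0.152, a difference of 3.17 ± 0.36 (limma adjusted p = 0.000279). Btg1 stood at 5.27, 5.20, 5.70 and 5.85 against 1.19, 1.44, 2.63 and 2.36 (1.58). Ier5, an early-response gene of the heat-shock pathway, stood at 5.86, 4.67, 6.08 and 7.83 against 1.90, 2.01, 2.46 and 4.03 (1.26). The low and high values did not overlap for these 3 genes. Nfkbiz (1.78), Ccnl1 (1.45), Atf3 (1.20), Klf6, a zinc-finger factor (1.11), and Skil (1.11) were higher in each sample. Klf4 differed by 0.00 (95% interval -0.35 to 0.35).

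Microglia markers also stood higher in the low-depth cells of cluster 6, at a sum of 17.8 to 24.1 against 15.8 to 18.9, with 9 of 10 markers higher. Their part in the result was not tested. On the mean corrected count per cell 9 genes were higher and the medians were 0.19 for the genes and -0.63 for all genes. The count was 8 at a hashtag share of at least 0.8, 7 without CCR2+/- 1, and 1 without the mean-variance trend.

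**Figure D5:**
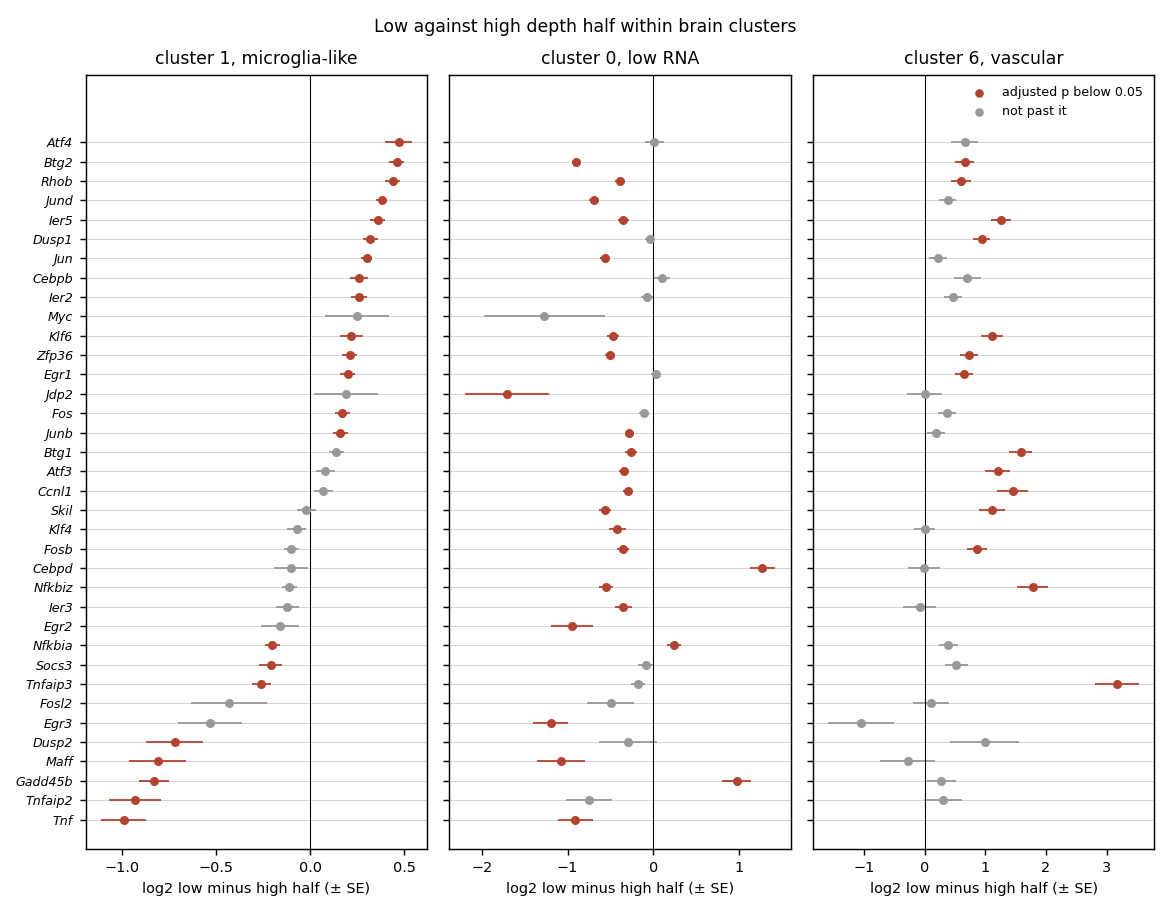
Log2 difference of the low-depth minus the high-depth cells (point, with its standard error as a bar) for the genes in brain clusters 1, 0 and 6, with genes past an adjusted p of 0.05 in red. Btg2 lies at 0.46 in cluster 1, -0.90 in cluster 0 and 0.66 in cluster 6, and genes without a point were not tested.

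Taken over the clusters together, blood showed more higher than lower calls in the low-depth cells. The low-RNA cluster of naive blood, described below, ran the other way. Over 5 clusters of naive blood there were 36 higher and 6 lower calls in 162 tests of these genes, and over 5 clusters of blood of metastasis-bearing mice 43 higher and 3 lower calls in 160 tests. Higher calls over all genes were 1.37% to 4.82% by cluster in naive mice and 0.327% to 39.9% in metastasis-bearing mice. Lower calls over all genes were 2.92% and 2.56%, so the lower counts of these genes were near their background. On the mean corrected count per cell the calls were 20 higher and 12 lower in naive mice and 30 and 2 in metastasis-bearing mice. In neutrophil-like cells 13 genes of 35 were higher in naive mice (4.15% of all genes) and 19 of 35 in metastasis-bearing mice (7.35%), and on the mean corrected count per cell 2 and 10 were. Jun stood at 6.49 and 6.38 in the low-depth cells of naive neutrophils against 4.01 and 4.16 in the high-depth cells, and at 5.37 and 5.57 against 3.59 and 3.01 in metastasis-bearing mice. Cebpd, by contrast, stood at 10.3 and 9.86 against 11.3 and 10.8 in naive mice. Microglia markers in these neutrophil-like cells summed to 2.67 to 3.36 at low and 1.77 to 2.02 at high depth in naive mice (8 of 10 markers higher), and to 2.72 to 3.38 and 1.94 to 2.19 in metastasis-bearing mice (9 of 10). Their part in the result was not tested.

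In B cell-like cells 6 of 32 genes were higher in naive mice (1.40% of all genes) and 2 of 32 in metastasis-bearing mice (0.327%). In T cell-like cells 6 of 31 were higher in naive mice (1.37%) and 9 of 28 in metastasis-bearing mice (1.51%). In monocyte-like cells 10 of 32 were higher in naive mice (4.82%), and 11 of 33 in metastasis-bearing mice, where 39.9% of all genes were. The last share is below the background. In the low-RNA clusters 1 of 32 (1.51%) and 2 of 32 (1.40%) were higher. Of the 6 lower calls in naive blood, 4 fell in its low-RNA cluster. The median there was -0.44 over the genes and -0.78 over all genes, with 5 of 32 positive beside 19.2% of all genes. In the low-RNA cluster of metastasis-bearing mice the medians were 0.36 and -0.60. With 2 samples per table, limma had 1 residual degree of freedom per gene and rested on the spread shared over genes. Without the mean-variance trend it made 0 higher calls in naive blood and 3 in metastasis-bearing mice.

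Blood groups were 1 sample each and could not be tested. Between naive Hom and naive Het, 6 of 162 gene and cluster pairs differed by at least 2-fold (6.58% over all genes). Ier3 in neutrophil-like cells stood at 1.95 in Hom and 5.31 in Het, and Socs3 at 2.79 and 7.01. Between metastasis-bearing Hom and Het, 6 of 160 did (5.50%). Between metastasis-bearing and naive mice, 6 of 127 did in Het (5.69%) and 4 of 132 in Hom (6.49%), and these share samples with the comparisons above. None of these 4 shares stood above that of all genes.

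Other genes of the same response were counted from a list of 64, of which 61 were in all 3 tables. The list was written with earlier results of these data known, so its counts are a description and not independent support. In brain cluster 4 against naive blood, 35 of 56 that passed the filter were at least 2-fold higher (6.30% of all genes) and 2 lower (8.82%). In the depth comparison of cluster 1, 10 of 56 were higher (among them Klf2, Per1 and Zfp36l1; 1.78% of all genes) and 7 lower (among them Cxcl2 and Il1a; 1.05%). In cluster 0, 5 of 58 were higher, which is near the 7.63% of all genes, and 16 lower (11.3%). In cluster 6, 10 of 52 were higher (2.99%) and 2 lower, which is near the 2.78% of all genes. Between CCR2 genotypes in cluster 1, 5 of 56 rose (Cxcl2, Hsph1, Il1a, Il1b and Ptgs2, of which Cxcl2, Il1a and Il1b encode inflammatory cytokines) and 1, Rgs1, fell, beside 0.271% and 0.215% of all genes.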

How the data were processed

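Values in the 3 deposited expression tables are on a natural log scale, which the authors made as ln of 1 plus a count corrected for cell depth (SCTransform, inferred from a column name in the file headers), separately for each table; back-transformed values lay within 2.18e-11 of whole numbers. Reads were processed with Cell Ranger 3.1 on mm10, per the submitters' processing notes. Raw UMI counts per cell, hashtag counts, clusters and antibody gates came from the deposited cell descriptions. Cells were clear if their barcode stood in 1 table and at least 0.5 of their hashtag counts came from that table's hashtags. All deposited cells are marked as singlets by the authors' hashtag call, and no doublet caller was run, so doublets within 1 hashtag were not removed.

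Corrected counts were summed per hashed sample and cluster, scaled to 10000, and fitted as log2 with a pseudocount of 1 in limma 3.58.1 (R 4.3.3, with a mean-variance trend). Genes needed 20 corrected counts or more, and each sample or depth group 20 cells or more. P-values were adjusted by Benjamini-Hochberg over all genes, with a threshold of 0.05. The script was tested on simulated data. Full values were given for genes past the threshold with the largest differences, among those at a level of at least 0.5, and for 10 early genes in microglia. Genes, lists and markers were chosen with earlier results of these data known. Alternatives were other cells, purity, scaling, pseudocount, filter, trend, split and each sample left out. The gated T cells, the cells without haemoglobin, the summed B cells and neutrophils and the test between clusters 0 and 1 were chosen after seeing the data.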

Additional observations from a re-analysis of the deposited data

Results flagged for a closer look

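In 3 cases 1 of the 4 hashed brain samples stood apart from the others in its low minus high depth difference (log2), among 60 called differences checked, and chance alone marks about 1 in 20 such groups, which is as many. Klf4 in cluster 0 was at -0.89 in CCR2-/- 2, with the other samples at -0.30 to -0.19. Nfkbia in cluster 1 was at -0.40 in CCR2-/- 1, with the others at -0.15 to -0.12. Socs3 in cluster 1 was at -0.56 in CCR2-/- 1, with the others at -0.12 to -0.07.

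The depth difference differed between brain clusters 0 and 1 for 21 genes, by limma's test of the difference itself. Cluster 0 minus cluster 1 was negative for the AP-1 and related genes Jun (-0.86), Jund (-1.08), Junb (-0.43), Fos (-0.28), Jdp2 (-1.94), Atf3 (-0.42) and Atf4 (-0.45). It was negative for the inhibitors Dusp1 (-0.36) and Zfp36 (-0.73), and for the antiproliferative genes Btg1 (-0.40) and Btg2 (-1.36). It was also negative for Ier2 (-0.34), Ier5 (-0.71), Klf6 (-0.70), Nfkbiz (-0.44), Rhob (-0.83), Skil (-0.54) and Ccnl1 (-0.37). It was positive for Gadd45b (1.81), Cebpd (1.38) and Nfkbia (0.45). Skil and Ccnl1 were among the genes that led cluster 0.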

How the results depend on the processing

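Of the alternatives to counts of calls, 111 kept the count within 1.5 times and 38 moved it. The share of all genes called under each alternative is not given, here or above. Shifts in these counts are therefore not set against their background. The count of 30 genes higher in brain cluster 4 than in naive blood ranged from 27 to 33 over its alternatives. Without the mean-variance trend, calls fell to 0 for genotype in clusters 1 (from 3 and 1) and 0 (from 2), to 0 for depth in clusters 0 (from 3 and 21) and 1 (from 14 and 8), to 1 in cluster 6 (from 14), to 0 and 0 in naive blood (from 36 and 6) and to 3 and 0 in blood of metastasis-bearing mice (from 43 and 3). On the mean corrected count per cell the depth calls were 8 higher and 13 lower in cluster 1, 9 higher in cluster 6, and 20 higher and 12 lower in naive blood. With no filter on low genes, genotype calls were 0 lower in cluster 0 and 2 lower in clusters 3, 4 and 6 (from 0), and depth calls 4 lower in cluster 1 and 19 higher in naive blood. With all deposited cells, genotype calls were 0 lower in cluster 0 and 3 lower in clusters 3, 4 and 6, and lower depth calls were 26 in naive blood and 20 in blood of metastasis-bearing mice. A pseudocount of 5 gave 0 lower genotype calls in cluster 0 and 5 lower depth calls in blood of metastasis-bearing mice. A hashtag share of 0.8 gave 8 higher calls in cluster 6, and comparing only the extremes of depth gave 11 lower calls in naive blood. The cause was not tested.

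Leaving out 1 sample gave 0 to 3 lower genotype calls in cluster 1, 0 to 3 in cluster 0 and 0 to 6 in clusters 3, 4 and 6. For depth it gave 9 to 14 higher and 4 to 8 lower calls in cluster 1 and 7 to 14 higher in cluster 6. The lone sample of a genotype is then assumed to vary like the others. In blood this leaves no residual degree of freedom and was not run. Among single genes, Egr1 in cluster 0 (0.03, not called) turned to -0.05 per cell, -0.18 between the extremes of depth and -0.07 without CCR2-/- 1 (up to 0.08 without another sample), and Dusp1 (-0.04, not called) to 0.02 between the extremes. No paired analysis was possible because the numbers 1 and 2 only follow the order of the hashtags and tie no sample of one genotype to a sample of the other. Depth limits genes below 1 per 10000, and raw counts were not used here. Corrected counts per cell exceeded the raw UMI totals in brain cluster 0 and in the low-RNA clusters of blood.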
